A study of Homo sapiens with 12 samples.

Results

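The oxamate response of oxamate-resistant MIAPaCa2 cells was compared with that of the parental cells in all 12 libraries of the series, as the difference between oxamate-treated and vehicle-treated resistant cells minus the same difference in parental cells on the log2 scale. This difference of differences, the interaction, is positive where a gene responded more in the upward direction in resistant cells. MIAPaCa2 is an established pancreatic ductal adenocarcinoma (PDAC) line, and sodium oxamate is an inhibitor of lactate dehydrogenase A (LDHA). The resistant cells were polyclonal and were grown from MIAPaCa2 in 10 mM sodium oxamate for 4 weeks, so that cell line and selection cannot be told apart. Whether 1 or more polyclonal populations gave the resistant libraries is not stated. RNA was sequenced from 4 groups of 3 replicates: parental cells without the inhibitor (untreated in the labels, vehicle in the methods), parental cells with oxamate, and resistant cells without and with oxamate. All cells were kept in the same serum-containing medium. The length of the oxamate exposure before RNA extraction is not given in the sources used here. How long the vehicle-treated resistant cells had been without oxamate is not given either, and they may differ in this from never-exposed parental cells. Whether replicates were separate cultures is also not given, so p-values measure the spread between these libraries. Of 26475 gene symbols, 14582 had enough counts to be tested, and the interaction was called for 1097 of them with an adjusted p under 0.05 and more than 1.5-fold between the responses, which is 7.52% of the genes tested.

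Lactate dehydrogenase turns pyruvate into lactate and restores the NAD+ that glycolysis uses. In tumour cells that rely on glycolysis, blocking it holds back glycolytic flux and shifts the balance of NADH to NAD+, and cells answer through transcription factors that sense oxygen and metabolites, misfolded protein or amino acid supply. Hypoxia-inducible factor (HIF) induces glucose transporters, glycolytic enzymes and secreted factors, HSF1 induces cytosolic chaperones, and ATF4 induces genes of the integrated stress response. Many of the transcripts these factors control are short-lived, so their level follows transcription closely.

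Expected counts summed to between 46698729 and 114222169 per library, every parental library was deeper than every resistant library, and a floor of 3 counts corresponded to between 0.0283 and 0.0581 CPM (counts scaled to a common library size with TMM factors). The floors cover counting error only, whereas the 95% intervals come from the fit and include the spread between libraries. The epithelial keratins KRT8 and KRT18 were present in all libraries at 671 to 1601 and 731 to 1358 CPM, and of the markers of other cell types PRSS1, INS, GCG and CD3E were at 0. CPA1, CHGA, PTPRC, DCN and LUM had at most 3 counts in any library. The acinar gene CEL was at 0.465 to 1.59 CPM, the endothelial genes PECAM1 and CDH5 at 0.0336 to 0.159 and 0.385 to 0.957 CPM, the fibroblast gene COL1A1 at 0.9005 to 2.03 CPM and CD68, a lysosomal protein of macrophages and other cells, at 56.4 to 220.2 CPM. In nuclear-retained RNA the third replicate of oxamate-treated parental cells and the third of vehicle-treated resistant cells stood apart from their groups. MALAT1 was at 289, 281 and 596 CPM in the oxamate-treated parental replicates and at 273, 244 and 596 CPM in the vehicle-treated resistant replicates, against 183, 198 and 199 CPM in vehicle-treated parental and 577, 609 and 742 CPM in oxamate-treated resistant cells. The counts of the response classes defined below are given with and without these 2 libraries.

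LDHA itself responded in both lines. It was at 1075, 1059 and 1086 CPM in vehicle-treated and 1701, 1694 and 1546 CPM in oxamate-treated parental cells, and at 966, 969.9 and 944 and 1223, 1217 and 1198 CPM in resistant cells, so the treated replicates lay above the vehicle-treated ones in each line. The response was 0.62 in parental and 0.34 in resistant cells on the log2 scale. The interaction of -0.28 (standard error 0.04, edgeR quasi-likelihood adjusted p = 9.55e-05) was a smaller difference than the 1.5-fold needed for a call. All adjusted p-values come from edgeR's quasi-likelihood test, adjusted by Benjamini-Hochberg over the genes tested. LDHB, the other main subunit of the enzyme, had at most 1 count in any library.

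Interaction calls were more frequent among the genes that oxamate lowered in parental cells than among those it raised. Oxamate raised 776 genes (5.32% of those tested) and lowered 592 (4.06%) in parental cells at an adjusted p under 0.05 and over 1.5-fold. Of the raised genes 241 (31.1%) had an interaction call, and of the lowered genes 477 (80.6%). In the 9623 genes whose mean reached 8 CPM the shares were 78 of 178 (43.8%) and 194 of 237 (81.9%). Of the 535 raised genes without an interaction call, 52 were also called up in resistant cells. The lack of an interaction call therefore does not show that a response was kept. In resistant cells oxamate raised 169 genes (1.16%) and lowered 23 (0.158%). Of the parental responses, 57 upward ones and 0 downward ones were also called with the same sign in resistant cells by edgeR's quasi-likelihood test. At an unadjusted p under 0.05 these counts were 122 and 1, with limma-voom 66 and 1, and with DESeq2 32 and 1. Without the third oxamate-treated parental replicate 36.9% of the raised genes had an interaction call, and 25.8% without the third replicate of vehicle-treated resistant cells.

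The interaction was positive for 728 genes (4.99%) and negative for 369 (2.53%). TMM sets the median interaction of all genes at -0.01, whereas library size alone moved it by 0.105 and gave 1105 positive and 205 negative calls, so the split between directions depends on the scaling. Genes with a call were sorted by the responses themselves, so the counts of the classes are descriptions. A response was reversed where it passed an adjusted p of 0.05 with opposite signs in the lines, lost where the parental response was called and the resistant one did not pass, damped where it passed with the same sign but smaller, and gained where it was called in resistant cells and either did not pass in parental cells or had the same sign and was smaller there. There were 248 reversed, 562 lost, 46 damped and 32 gained responses, and 209 genes with a call fell in no class, 149 of them with a parental response that passed the adjusted p but not 1.5-fold. A further 52 genes were kept, that is, called in both lines with the same sign and without an interaction call. The genes nearest to the 1.5-fold limit among those that passed the adjusted p were NOP2 just inside it, with an interaction of 0.59, and AGAP4 just outside, with 0.58 (0.60, and called, with the replicate number as a block). Of the single libraries left out, the first and the second vehicle-treated resistant replicates gave the fewest reversed responses, 165 and 159. Damped responses numbered 26 and 24 without these libraries, and 29 and 25 without the second or the third oxamate-treated resistant replicate. Without both libraries rich in nuclear-retained RNA 328 genes were reversed, 219 of the 248 among them. There were then 536 lost genes, 408 of the 562 among them, and 42 damped genes, 28 of the 46 among them.

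**Figure D1:**
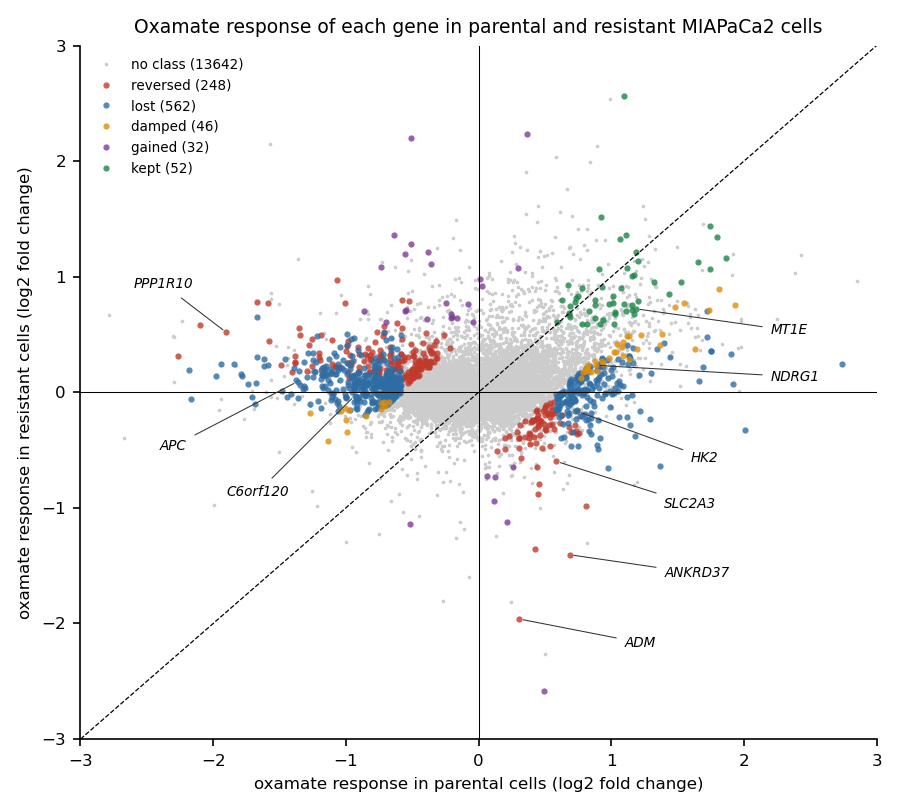
Each point is a gene, with its log2 response to oxamate in parental cells on the horizontal and in resistant cells on the vertical axis, coloured by response class (the dashed line marks equal responses, and 9 classed genes lie outside the axes). Lost responses line up along the horizontal axis, reversed ones fill the upper left and lower right, and the 52 kept responses all lie in the upper right.

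Genes that rose in parental and fell in resistant cells were led by targets of HIF. The 73 genes of this kind had a median response of 0.46 in parental and -0.30 in resistant cells, a median level of 54.7 CPM against 19.6 CPM over all genes tested, and for 72 of the 73 the replicates did not overlap between treatments in either line, which holds for 27.6% of all genes tested. Passing the test in both lines chose these genes, so nothing is read from that count. Library size alone gave 48 genes of this kind. Of a list of HIF targets outside glycolysis, 35 of the 38 symbols in the file were tested, and 12 had a negative and 1 a positive interaction call (37.1% of the list, against 7.52% of all genes). The list's median response was 0.60 in parental and 0.10 in resistant cells, and its median interaction was -0.53, or -0.43 with library size alone. By class, 9 of these 13 genes were reversed, 3 damped and 1 lost. At an adjusted p under 0.05, 31 of the 35 rose and 2 fell in parental cells (28.3% and 30.4% of all genes). In resistant cells 16 rose and 12 fell (9.01% and 12.5% of all genes), so the list as a whole did not fall there.

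The windows of 250 bases before the transcription start, from RefSeq (GRCh38.p14), hold the letters that HIF binds, ACGTG, on either strand in 28.3% of the 11446 tested genes with such a window. Of the HIF list 19 of 28 genes with a window held them (67.9%), and of its called members 6 of 9 (66.7%). The windows of 3 called genes that rose in parental cells are shown with ACGTG and its complement CACGT in capitals, where CACGTG, which is also an E-box, counts as a match on both strands.
ANKRD37 (chr4:185396591-185396840, plus strand): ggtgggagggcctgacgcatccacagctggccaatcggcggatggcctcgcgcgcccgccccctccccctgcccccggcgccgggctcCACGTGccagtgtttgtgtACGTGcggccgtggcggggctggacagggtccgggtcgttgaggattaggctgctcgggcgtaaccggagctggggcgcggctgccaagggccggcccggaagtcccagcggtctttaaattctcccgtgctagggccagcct
ALDOC (chr17:28576896-28577145, minus strand): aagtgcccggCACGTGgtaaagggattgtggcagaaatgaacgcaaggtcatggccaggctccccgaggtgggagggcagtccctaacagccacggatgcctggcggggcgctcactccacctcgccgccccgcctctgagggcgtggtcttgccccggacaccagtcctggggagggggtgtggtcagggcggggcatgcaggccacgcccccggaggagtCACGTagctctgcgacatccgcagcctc
HK2 (chr2:74834920-74835169, plus strand): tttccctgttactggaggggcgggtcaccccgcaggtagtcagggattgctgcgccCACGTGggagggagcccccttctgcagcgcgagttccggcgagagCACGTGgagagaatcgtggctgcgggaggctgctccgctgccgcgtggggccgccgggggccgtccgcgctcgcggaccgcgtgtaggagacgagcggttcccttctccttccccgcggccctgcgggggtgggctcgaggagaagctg
The matches of ANKRD37 began 143 to 162 bases before the start, those of ALDOC 28 to 240 bases, and those of the second of 2 HK2 windows 148 to 194 bases. ACGTG was held by 22 of 57 genes with a window that rose in parental and fell in resistant cells (38.6%). It was held by 34 of 147 with the opposite reversal (23.1%). The E-box was found in 10.9% of all windows, and in 15 of these 57 (26.3%) and 7 of these 147 (4.76%). Of a list of lactate and pyruvate handling genes, which had 1 interaction call, 13 of 19 held ACGTG (68.4%). A match is a description of the letters and shows no binding, and the window of ADM held no ACGTG.

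ADM and ANKRD37 had the largest interactions among the 12 negative calls of the HIF list. ADM, which encodes the vasodilator peptide adrenomedullin, was at 35.95, 34.4 and 33.2 CPM in vehicle-treated and 43.3, 40.8 and 43.97 CPM in oxamate-treated parental cells. In resistant cells ADM was at 16.5, 16.8 and 16.3 CPM after vehicle and 4.08, 4.05 and 4.56 CPM after oxamate. The groups did not overlap in either line, and the interaction of -2.27 (standard error 0.07, edgeR quasi-likelihood adjusted p = 9.84e-12) was a 4.81-fold difference between the responses. ANKRD37, a HIF target that encodes an ankyrin repeat protein, rose from 27.1, 27.96 and 26.3 to 44.6, 42.2 and 44.3 CPM in parental cells and fell from 17.01, 16.04 and 16.3 to 6.53, 6.19 and 5.92 CPM in resistant cells (interaction -2.09, standard error 0.06, edgeR quasi-likelihood adjusted p = 6.90e-12). The resistant cells thus started lower than the parental cells and moved further down.

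SLC2A3, the glucose transporter GLUT3, had the smallest interaction p of all genes. It was at 343, 349 and 349 CPM after vehicle and 524, 527 and 511 CPM after oxamate in parental cells, and at 247, 252 and 249.6 and 167, 163 and 165 CPM in resistant cells. The responses were of about equal size and opposite, 0.59 in parental and -0.60 in resistant cells (interaction -1.18, standard error 0.03, edgeR quasi-likelihood adjusted p = 3.34e-12). SLC2A1, the glucose transporter GLUT1, followed it, from 173, 168 and 168 to 263, 263 and 261 CPM in parental cells and from 100.3, 100.4 and 100.2 to 85.4, 89.03 and 87.7 CPM in resistant cells. HILPDA, which encodes a lipid droplet protein that inhibits lipolysis, was at 46.6, 46.7 and 45.04 and 62.2, 63.6 and 64.1 CPM in parental cells and at 45.04, 43.7 and 41.6 and 25.3, 24.8 and 25.04 CPM in resistant cells. Its vehicle-treated levels in the 2 lines differed by little, and the treated levels lay on opposite sides of them.

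VEGFA, the main angiogenic growth factor, rose by 0.50 in parental cells and fell by 0.32 in resistant cells on the log2 scale, and ANGPTL4, a secreted inhibitor of lipoprotein lipase, rose by 0.68 and fell by 0.30. DDIT4, an inhibitor of mTORC1, rose by 0.20 and fell by 0.49. INSIG2, which holds the sterol sensor SCAP in the endoplasmic reticulum, was the lost response, at 0.78 in parental and 0.00 in resistant cells. The positive call was EGLN3, a HIF prolyl hydroxylase, which went from 0.245, 0.233 and 0.241 to 0.0715, 0.209 and 0.0724 CPM in parental and from 0.384, 0.353 and 0.308 to 0.555, 0.871 and 0.638 CPM in resistant cells. These EGLN3 levels are close to the floor in oxamate-treated parental cells. CA9, a carbonic anhydrase, and TMEM45A were kept responses, CA9 at a mean of 0.141 CPM.

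**Figure D2:**
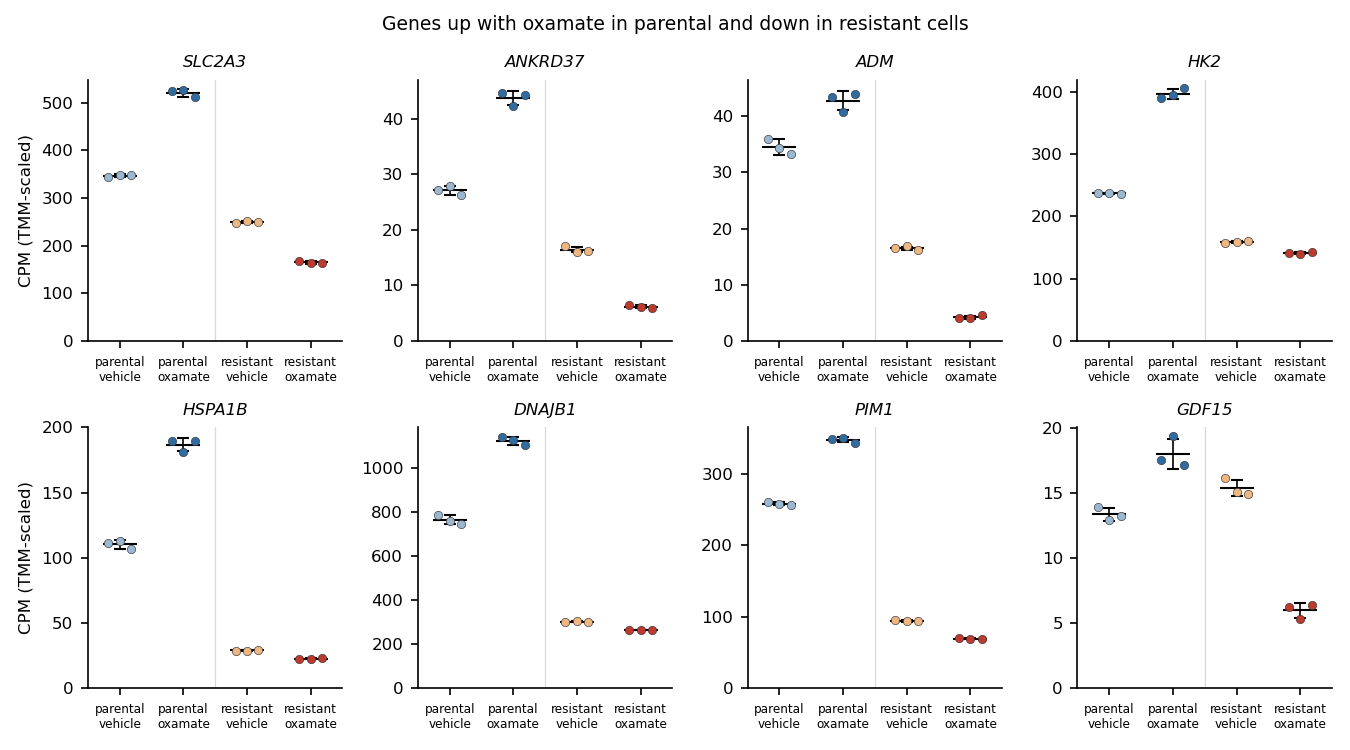
Expression (CPM, scaled by TMM factors, vertical axis from 0) of 8 reversed genes in the 3 replicates (points) of each group, with the mean and the SD as bars. In every panel the oxamate-treated replicates lie above the vehicle-treated ones in parental cells and below them in resistant cells.

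Glycolytic enzymes rose in both lines, and less in resistant cells. Oxamate raised 15 of the 15 tested enzymes in parental cells at an adjusted p under 0.05, with a median response of 0.55, and 13 in resistant cells, with a median of 0.18. Of all genes tested, 28.3% rose in parental and 9.01% in resistant cells at that threshold. The interaction was negative for 14 of the 15 at an adjusted p under 0.05, against 21.4% of all genes, but only HK2, ENO2 and ALDOC (20% of the list, against 7.52%) passed 1.5-fold. HK2, the hexokinase that phosphorylates glucose, was the reversed one, at 237, 238 and 236 CPM after vehicle and 389.7, 395 and 405 CPM after oxamate in parental cells and at 157, 158 and 160.1 and 141, 139 and 143 CPM in resistant cells. Its interaction was -0.91 (standard error 0.03, edgeR quasi-likelihood adjusted p = 5.70e-11).

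ALDOC and ENO2, an aldolase and an enolase, were damped. ENO2 rose from 219, 221 and 220.3 to 450.1, 445 and 505 CPM in parental cells and from 202, 195 and 209.7 to 269.9, 254 and 271 CPM in resistant cells, and ALDOC from 81.01, 77.4 and 78.8 to 173, 166 and 165 CPM and from 33.3, 33.7 and 31.8 to 43.98, 45.7 and 43.9 CPM. In each case the treated replicates lay above the vehicle-treated ones in both lines. SLC16A3, the lactate exporter MCT4, was the single call among 23 tested genes of lactate and pyruvate handling (4.35%, against 7.52% of all genes). It rose from 647, 620.4 and 581 to 956, 958 and 968 CPM in parental cells and was at 438, 445 and 418 and 437, 435 and 436 CPM in resistant cells, where the response of 0.01 had a 95% interval from -0.06 to 0.08. With library size alone the interactions of ALDOC and SLC16A3 were -0.55 and -0.53, under 1.5-fold. Of the 23 genes of lactate and pyruvate handling, 13 had a negative and 1 a positive interaction at an adjusted p under 0.05 (21.4% and 22.7% of all genes).

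Collagen genes and their modifying enzymes rose in parental cells, 26 of 35 tested at an adjusted p under 0.05 against 0 that fell, and 11 rose and 3 fell in resistant cells. Over all genes tested 28.3% rose and 30.4% fell in parental cells and 9.01% rose and 12.5% fell in resistant cells. The interaction was negative for 19 and positive for 1 of the 35 at an adjusted p under 0.05 (21.4% and 22.7% of all genes). The share with an interaction call past 1.5-fold, 3 of 35 (8.57%), was near the 7.52% of all genes. These calls were the lysyl hydroxylase PLOD1, the prolyl hydroxylase P4HA1 and the collagen chain COL5A1. P4HA1, which the HIF list also holds, rose from 208, 214 and 222 to 389.9, 391 and 363 CPM in parental and from 176, 174 and 171 to 201, 203 and 194 CPM in resistant cells. COL5A1 rose from 9.05, 8.73 and 9.36 to 16.2, 15.6 and 18.2 CPM in parental cells and was at 9.21, 9.12 and 10.2 and 10.2, 9.78 and 10.7 CPM in resistant cells (interaction -0.78, standard error 0.09, edgeR quasi-likelihood adjusted p = 4.86e-06). With library size alone the interactions of PLOD1 and P4HA1, -0.51 and -0.53, were under 1.5-fold.

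Among cytosolic chaperones, 3 genes that HSF1 induces were reversed. Of 23 tested heat shock proteins and cochaperones these 3 alone had an interaction call (13%, against 7.52% of all genes), and it was negative: HSPA1A and HSPA1B, the inducible HSP70 genes, and DNAJB1, the HSP40 that assists them. Their windows of 250 bases before the start are shown with the heat shock element core GAANNTTC in capitals. These letters were found in 5.88% of all windows, in 11 of 21 windows of the chaperone list (52.4%) and in 3 of the 3 called members.
HSPA1A (chr6:31815293-31815542, plus strand): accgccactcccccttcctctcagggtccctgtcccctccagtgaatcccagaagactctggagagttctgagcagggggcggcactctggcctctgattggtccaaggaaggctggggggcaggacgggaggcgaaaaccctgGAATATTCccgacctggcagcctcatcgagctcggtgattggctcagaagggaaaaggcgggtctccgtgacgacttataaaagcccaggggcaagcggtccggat
HSPA1B (chr6:31827488-31827737, plus strand): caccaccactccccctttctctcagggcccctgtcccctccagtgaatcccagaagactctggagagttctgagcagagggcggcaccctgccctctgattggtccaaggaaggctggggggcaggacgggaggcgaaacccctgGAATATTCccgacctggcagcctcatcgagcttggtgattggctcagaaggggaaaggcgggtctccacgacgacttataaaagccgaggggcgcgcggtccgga
DNAJB1 (chr19:14518398-14518647, minus strand): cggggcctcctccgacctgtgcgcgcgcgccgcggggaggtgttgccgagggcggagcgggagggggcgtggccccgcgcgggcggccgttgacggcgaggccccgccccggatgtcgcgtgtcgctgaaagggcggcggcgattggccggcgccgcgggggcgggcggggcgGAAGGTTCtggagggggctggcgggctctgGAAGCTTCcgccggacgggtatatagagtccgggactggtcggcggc
The matches began 106 bases before the start in HSPA1A, 105 in HSPA1B, and 47 and 77 bases before the second of 3 starts of DNAJB1.

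DNAJB1 was at 789, 762 and 748 CPM after vehicle and 1141, 1130.5 and 1107 CPM after oxamate in parental cells, and at 302, 304 and 301 and 266, 264 and 265 CPM in resistant cells (interaction -0.75, standard error 0.03, edgeR quasi-likelihood adjusted p = 4.20e-10). HSPA1B went from 111, 113 and 107 to 189, 181 and 189.7 CPM in parental cells and from 28.4, 28.96 and 29.6 to 22.5, 22.4 and 23.3 CPM in resistant cells. Its near-identical copy HSPA1A went from 404, 382 and 374 to 635, 634 and 674 CPM and from 103, 103 and 101 to 78.5, 78.6 and 81.6 CPM. RSEM may have shared reads between the copies, and both had an interaction of -1.11. The list as a whole had a median interaction of -0.10, which library size alone turned to 0.01, so no direction is given for it. In the endoplasmic reticulum, DNAJB9, an XBP1 target, was the single call among 22 genes and was reversed too, with 0.38 in parental and -0.40 in resistant cells.

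Genes of the integrated stress response had an interaction call past 1.5-fold about as often as all genes, 4 of 40 tested (10% against 7.52%). Of these, 3 had a negative call (GDF15, NUPR1 and DDIT4) and CHAC1 a positive one, and all 4 were reversed. GDF15, a secreted stress cytokine, rose from 13.9, 12.9 and 13.3 to 17.5, 19.4 and 17.2 CPM in parental cells and fell from 16.1, 15.1 and 14.98 to 6.26, 5.34 and 6.39 CPM in resistant cells (interaction -1.79, standard error 0.09, edgeR quasi-likelihood adjusted p = 1.71e-09). CHAC1, which degrades glutathione, fell from 2.62, 2.41 and 2.64 to 1.05, 1.18 and 1.13 CPM in parental cells and rose from 11.9, 11.8 and 11.6 to 13.1, 13.3 and 13.7 CPM in resistant cells. CHAC1 was thus highest in resistant cells with oxamate and GDF15 lowest there. At an adjusted p under 0.05, 22 genes of the list fell and 13 rose in parental cells, and 28 fell and 2 rose in resistant cells. Over all genes tested 30.4% fell and 28.3% rose in parental cells and 12.5% fell and 9.01% rose in resistant cells. The interaction was negative for 23 and positive for 5 of the 40 at that threshold (21.4% and 22.7% of all genes). Its median was -0.18, or -0.07 with library size alone. The 20 cytosolic aminoacyl-tRNA synthetases had 0 interaction calls by edgeR's quasi-likelihood test (7.52% of all genes), 0 at an unadjusted p under 0.05, and 0 with limma-voom or DESeq2. Of the 20, 15 fell in each line at an adjusted p under 0.05, against 30.4% of all genes in parental and 12.5% in resistant cells.

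Immediate early and short-lived transcripts had interaction calls in both directions. Of 52 tested, 7 had a negative and 6 a positive interaction call (25% against 7.52% of all genes), and 8 were reversed and 5 lost. In these classes the interaction has the opposite sign to the parental response, which enters it. The match of the calls to the parental direction is therefore not a separate result. At an adjusted p under 0.05 the interaction was negative for 31 and positive for 15 of the 52 (21.4% and 22.7% of all genes). Its median was -0.26, or -0.16 with library size alone. At that threshold 25 rose and 17 fell in parental cells (28.3% and 30.4% of all genes), and 1 rose and 23 fell in resistant cells (9.01% and 12.5%). PIM1, a short-lived kinase, went from 261, 257 and 256 to 348, 350.4 and 343 CPM in parental cells and from 95.9, 94.5 and 93.4 to 70.7, 68.7 and 69.5 CPM in resistant cells (interaction -0.87, standard error 0.03, edgeR quasi-likelihood adjusted p = 5.73e-11). SIK1, a salt-inducible kinase, went from 149, 149.8 and 149.9 to 186, 184 and 191 CPM and from 89.7, 87.7 and 92.1 to 61.7, 59.5 and 61.05 CPM. PER1, a clock gene, ZFP36, an RNA-decay factor, KLF10, MAFF and PIM3 were reversed likewise, with parental responses between 0.38 and 0.70 and resistant responses between -0.45 and -0.26. The zinc finger factors EGR2 and EGR3, the growth factor CTGF, the Notch target HES1 and the ERK phosphatase DUSP6 were lost in the other direction, with parental responses between -1.44 and -0.59. DUSP6 went from 1.67, 1.33 and 1.85 to 0.679, 0.819 and 0.753 CPM in parental cells, and was at 21.6, 20.8 and 22.9 and 21.3, 20.1 and 21.3 CPM in resistant cells. With 3 positive calls among 22 tested MAPK feedback regulators (DUSP6, SPRED1 and SPRED3) and 0 negative ones, 13.6% of that list had a call. Over all genes 4.99% were positive and 2.53% negative. SPRED3, a feedback inhibitor of ERK signalling, lost its call without the first oxamate-treated parental replicate (0.54) or the third oxamate-treated resistant replicate (0.58).

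Beyond these lists, the lost upward responses with the smallest interaction p belonged to TSC22D3, PLIN2, DDR1 and EFNA3. TSC22D3, the glucocorticoid-induced leucine zipper protein, rose from 21.01, 21.5 and 21.95 to 43.6, 45.2 and 45.6 CPM in parental cells, and was at 13.9, 13.1 and 14.6 and 14.03, 15.1 and 14.3 CPM in resistant cells. Its resistant response was 0.06 (95% interval -0.04 to 0.16) and its interaction -0.999 (standard error 0.06, edgeR quasi-likelihood adjusted p = 9.72e-09). PLIN2, which coats lipid droplets, rose from 184, 183 and 189.5 to 286, 282 and 268 CPM and was at 118, 115 and 112 and 110.1, 113 and 108 CPM in resistant cells. DDR1, a collagen receptor kinase, was at 95.5, 93.4 and 92.1 and 146, 146 and 145 CPM in parental and at 119.8, 121 and 111 and 118, 116 and 117 CPM in resistant cells, where the treated and untreated replicates overlapped. EFNA3, an ephrin ligand, rose from 38.3, 37.4 and 36.3 to 63.96, 60.8 and 60.3 CPM in parental cells and was at 20.2, 21.8 and 20.5 and 19.96, 19.8 and 19.5 CPM in resistant cells. Lost upward responses numbered 196, or 113 with library size alone. For 135 of the 196 the 95% interval of the resistant response lay within 1.5-fold of no change. In 65 of the 196 the mean was below 1 CPM, and a p that missed the threshold there does not show the absence of a response.

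Damped upward responses numbered 33, or 12 with library size alone, with NDRG1 and TLE2 first by p. NDRG1, a HIF target known as a metastasis suppressor, was at 227, 221 and 221 and 415, 409 and 408 CPM in parental cells and at 199.9, 198 and 196 and 233, 232 and 233 CPM in resistant cells. TLE2, a transcriptional corepressor, was at 91.2, 91.5 and 90.2 and 158, 153 and 154 CPM and at 85.7, 83.3 and 84.6 and 91.7, 93.7 and 90.6 CPM. Both rose in each line, by 0.88 and 0.77 in parental and by 0.23 and 0.12 in resistant cells. With library size alone the interactions of NDRG1, TLE2, PLIN2 and DDR1 (-0.54, -0.54, -0.54 and -0.53) were under 1.5-fold.

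Downward responses of parental cells were lost or reversed as a rule. Of the 592 lowered genes, 366 were lost, 98 reversed and 13 damped, and 115 had no interaction call. The reversed class held a further 77 genes whose parental response passed the adjusted p at less than 1.5-fold, which makes 175 in all. Library size alone gave 278 genes reversed from down to up and 534 lost downward responses. These 175 had a median response of -0.63 in parental and 0.26 in resistant cells. For 172 of them the replicates of the treatments did not overlap in either line, against 27.6% of all genes, and nothing is read from this since the class was chosen by passing in both lines. Their group means had a median of 4.65 CPM in vehicle-treated parental, 2.95 CPM in oxamate-treated parental, 8.47 CPM in vehicle-treated resistant and 9.96 CPM in oxamate-treated resistant cells. The class was chosen from the responses within each line, and the order of the lines in these levels was not tested.

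PPP1R10, a nuclear targeting subunit of protein phosphatase 1, was the largest of the named reversals. It was at 7.68, 7.13 and 7.27 CPM after vehicle and 1.86, 2.09 and 1.97 CPM after oxamate in parental cells, and at 23.6, 23.4 and 25.2 and 33.8, 32.5 and 36.98 CPM in resistant cells. The interaction was 2.42 (standard error 0.09, edgeR quasi-likelihood adjusted p = 7.49e-11), a 5.35-fold difference. ZNF629, a zinc finger protein, fell from 31.4, 30.6 and 31.5 to 17.8, 17.2 and 17.995 CPM in parental cells and rose from 55.6, 54.4 and 54.8 to 63.4, 61.3 and 60.8 CPM in resistant cells (interaction 0.99, standard error 0.04, edgeR quasi-likelihood adjusted p = 2.12e-10). QRICH1, a transcriptional regulator of the unfolded protein response, went from 36.1, 35.3 and 35.6 to 21.5, 20.5 and 20.3 CPM and from 48.7, 48.5 and 51.03 to 54.3, 52.5 and 55.3 CPM. The parental fall was the larger part of each of these differences.

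CENPBD1 and FADD completed the leading reversals from down to up. CENPBD1, which encodes a protein with a CENP-B DNA-binding domain, was at 6.798, 6.59 and 7.22 and 2.61, 2.82 and 2.94 CPM in parental and at 15.3, 15.3 and 15.6 and 17.9, 17.6 and 17.1 CPM in resistant cells. FADD, the adaptor of death receptors, was at 21.4, 18.9 and 19.96 and 9.17, 9.19 and 9.45 CPM in parental and at 27.4, 28.3 and 27.2 and 29.97, 32.2 and 30.7 CPM in resistant cells. Their resistant responses were small, 0.19 and 0.16 on the log2 scale, and their replicates did not overlap. PMAIP1, the proapoptotic NOXA, also fell in parental cells (-0.48) and rose in resistant cells (0.14), whereas the p53 targets BBC3, PLK3 and GDF15 were reversed the other way. These 4 genes were the only calls among 22 tested p53 targets (18.2%, against 7.52% of all genes). With library size alone the resistant response of PLK3 and the interaction of BBC3 (-0.56) no longer passed.

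Lost downward responses were led by C6orf120, APC, MBP and ZBTB21. APC, the scaffold that limits beta-catenin, fell from 9.02, 9.47 and 10.1 to 3.54, 3.56 and 3.93 CPM in parental cells and was at 22.5, 22.7 and 22.4 and 23.5, 24.5 and 24.1 CPM in resistant cells (resistant response 0.09, 95% interval 0.00 to 0.19). Its interaction was 1.46 (standard error 0.07, edgeR quasi-likelihood adjusted p = 1.65e-09). ZBTB21, a zinc finger repressor, was at 23.2, 24.4 and 25.1 and 11.1, 10.9 and 11.5 CPM in parental and at 34.5, 34.1 and 36.05 and 32.6, 33.4 and 33.7 CPM in resistant cells. The treated replicates of ZBTB21 lay below the untreated ones in resistant cells too, and those of APC above, without passing the adjusted p. C6orf120 had a resistant response of -0.03 (95% interval -0.09 to 0.03) against -0.93 in parental cells. MBP, the gene of myelin basic protein, was at 114, 116 and 119.6 and 75.1, 75.3 and 73.02 CPM in parental and at 177, 178 and 176 and 179, 180.0 and 177 CPM in resistant cells. Over the 366 lost downward responses the median response was -0.79 in parental and 0.07 in resistant cells, and for 322 of them the interval of the resistant response lay within 1.5-fold of no change.

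**Figure D3:**
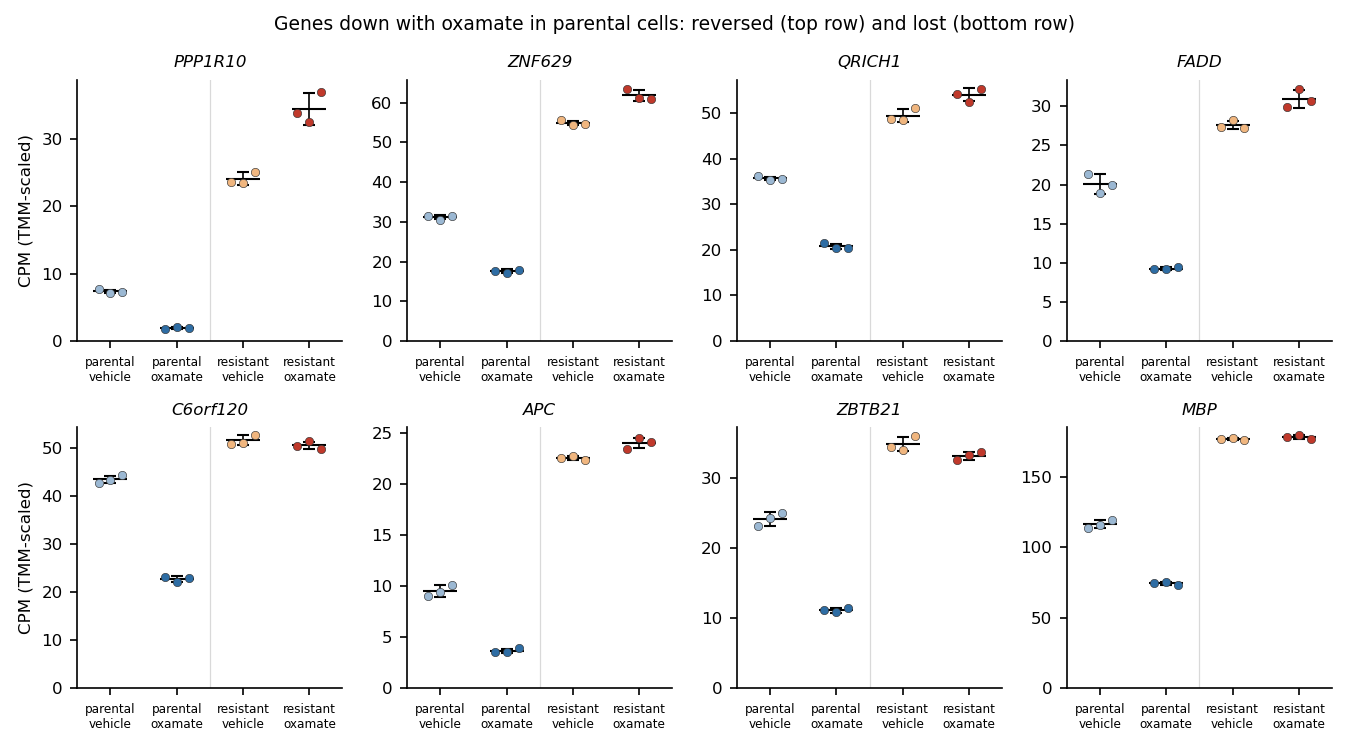
Expression (CPM, scaled by TMM factors, vertical axis from 0) of 4 reversed (top) and 4 lost (bottom) genes that oxamate lowered in parental cells, in the 3 replicates (points) of each group with the mean and the SD as bars. The resistant replicates lie above the oxamate-treated parental replicates in every panel, and in the lower row the treated and untreated resistant replicates are close together.

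Damped downward responses were few, 13 in all. CCDC71L fell from 55.9, 56.5 and 54.3 to 28.3, 27.4 and 27.3 CPM in parental and from 64.7, 72.4 and 67.8 to 62.4, 61.8 and 62.2 CPM in resistant cells. NCEH1, a cholesteryl ester hydrolase, fell from 102, 106 and 110.0 to 63.8, 63.5 and 63.4 CPM and from 63.2, 61.8 and 62.3 to 58.7, 57.9 and 59.1 CPM. The resistant fall of NCEH1, -0.09, no longer passed the adjusted p with library size alone.

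Zinc finger genes and genes of a single exon were frequent among the lost and reversed downward responses. The ZNF symbols make up 3.23% of the genes tested, 22.3% of the 175 genes reversed from down to up, 15% of the 366 lost downward responses and 1.02% of the 196 lost upward responses. They were 85 of the 592 genes lowered in parental cells and 55 of the 366 lost ones. The share in the lost class is thus near that of all lowered genes and is not particular to the loss. Of 471 tested ZNF genes, which encode DNA-binding proteins with mostly short-lived transcripts, 111 had a positive and 4 a negative interaction call (24.4% against 7.52% of all genes). Their median response was -0.22 in parental and 0.09 in resistant cells, and the counts with library size alone were 149 and 2. ZNF398 fell from 9.84, 9.07 and 10.2 to 4.11, 4.32 and 4.39 CPM in parental cells and was at 13.4, 13.1 and 13.2 and 13.99, 13.6 and 13.7 CPM in resistant cells. ZNF543 fell from 2.43, 2.08 and 2.41 to 0.644, 0.609 and 0.739 CPM and was at 6.04, 6.097 and 6.09 and 6.77, 6.81 and 6.54 CPM. Of protein-coding genes with a GENCODE entry, 2.08% have transcripts of 1 exon only, against 10.2% of the genes reversed from down to up, 9.76% of the lost downward and 1.3% of the lost upward responses. CENPBD1 and C6orf120 are of this kind, whose share among all 592 lowered genes was not taken. The median GC content of the transcripts was 45.82% in genes reversed from down to up and 55.65% in those reversed from up to down, against 49.69% in all coding genes tested. These shares describe the classes, and the part of transcript structure or turnover in them was not tested.

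**Figure D4:**
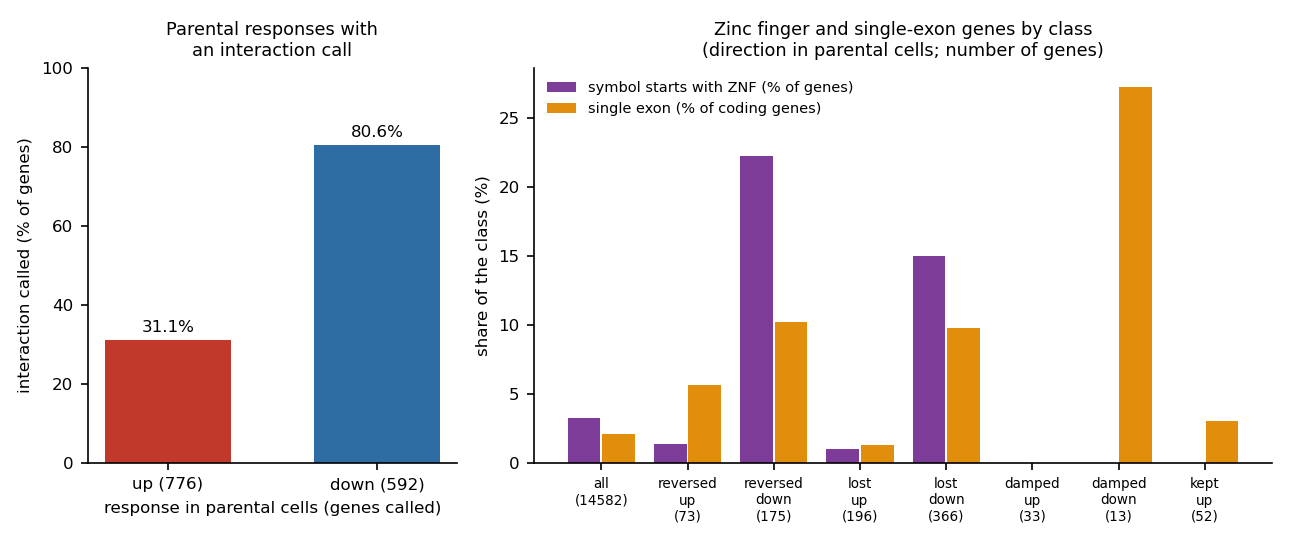
Left, share (%) of the genes called up or down in parental cells that had an interaction call; right, share (%) of ZNF genes and of single-exon genes among all genes and in each class, by the direction in parental cells. ZNF genes reach 22.3% and 15% in the reversed and lost downward classes against 3.23% of all genes, and the tallest single-exon bar, in damped down, stands for 3 of 11 coding genes.

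Gained responses were few and mostly of weakly expressed genes. Of the 32 gained responses 25 were up and 7 down, and 26 had a mean under 1 CPM. ACTRT3, which encodes an actin-related protein, had the smallest interaction p among the upward ones above that level. It was at 1.31, 1.24 and 1.22 CPM and 1.14, 1.05 and 1.09 CPM in parental cells and rose from 2.98, 2.92 and 2.86 to 4.57, 4.68 and 4.45 CPM in resistant cells (interaction 0.85, standard error 0.12, edgeR quasi-likelihood adjusted p = 4.78e-05). ZNF224, a zinc finger repressor, was at 3.3001, 2.98 and 3.39 and 2.68, 3.06 and 3.55 CPM in parental cells and went from 5.08, 5.68 and 7.104 to 9.17, 8.44 and 9.58 CPM in resistant cells, but lost its call without the first oxamate-treated parental replicate (interaction 0.56) or the first vehicle-treated resistant replicate (0.55) against 0.65 with all libraries. GTF2H2, a subunit of TFIIH with near-identical copies among which reads could be split, went from 9.99, 10.003 and 9.38 to 6.69, 8.01 and 5.98 CPM in parental and from 9.34, 6.47 and 8.01 to 2.43, 4.92 and 3.47 CPM in resistant cells. It was the 1 gene of the 32 that passed with the same sign in parental cells too, where it fell by 0.52 against 1.14 in resistant cells on the log2 scale, and its parental fall was past 1.5-fold (-0.59) with library size alone. Its interaction of -0.62 passed only narrowly and was between -0.90 and -0.41 with libraries left out, with the call lost without any of the 3 vehicle-treated parental, the first or second oxamate-treated parental, the first or the third vehicle-treated resistant, or the first or the third oxamate-treated resistant replicates. BLOC1S5-TXNDC5 is a read-through of 2 genes whose reads overlap theirs, and its level of 15.5, 12.2 and 5.96 CPM in untreated resistant replicates was uneven. LRRC24, at 2.39, 1.36 and 1.58 CPM in treated resistant cells against 0.925, 1.04 and 1.16 CPM in untreated ones, lost its call without the second vehicle-treated parental (0.71), the first vehicle-treated resistant (0.76) or the first oxamate-treated resistant replicate (0.57) against 0.84 with all. Without the 2 libraries rich in nuclear-retained RNA 147 genes were gained, 21 of the 32 among them, whereas the first, the second or the third vehicle-treated resistant replicate left out alone gave 8, 9 and 64, and the first or the third oxamate-treated one 21 and 12. The size of this class thus rests on single libraries.

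Kept responses were all upward. In resistant cells only 23 genes were called down, against 169 up, so few downward responses could be kept at 1.5-fold. At an adjusted p under 0.05 alone 1825 genes fell and 1314 rose in resistant cells. The 52 genes had a median response of 1.02 in parental and 0.80 in resistant cells, a mean under 1 CPM in 28 cases, and an interaction interval within 1.5-fold of no difference in 4 cases, whereas the intervals of the other 48 reached beyond that. MT1E, a metallothionein that binds zinc and copper, rose from 467, 440.5 and 397 to 993, 966 and 1009 CPM in parental and from 393, 394 and 368 to 638, 639 and 629 CPM in resistant cells. MT1M, a close relative, rose from 2.197, 1.99 and 1.705 to 5.29, 4.93 and 4.74 CPM and from 2.6001, 2.42 and 2.58 to 5.07, 4.65 and 5.03 CPM. Reads of the metallothionein family can be shared between its members. RIMKLA, which makes N-acetylaspartylglutamate, rose from 9.09, 9.67 and 9.17 to 20.99, 21.3 and 20.1 CPM and from 5.64, 6.15 and 6.16 to 9.88, 10.03 and 10.3 CPM. For all 3 the interaction had an adjusted p under 0.05 and was negative, between -0.46 and -0.37, so these responses were smaller in resistant cells by less than 1.5-fold. The long noncoding RNA MIAT and the lysyl oxidase LOX, a HIF target, were kept too, and MIAT is one of the nuclear-retained RNAs.

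The kept class moved with the 2 libraries that stood apart. The third oxamate-treated parental replicate was the highest of its group in 35 of the 52 genes (67.3%, against 35.5% of all genes tested), and the third vehicle-treated resistant replicate in 37 (71.2%, against 33.1%). With the replicate number as a block 81 genes were kept. Without both libraries 70 genes were kept, 26 of the 52 among them. Left out alone, the 3 vehicle-treated resistant replicates gave 31, 24 and 122 kept genes, and the first or the third oxamate-treated resistant replicate 34 and 23. MALAT1, NEAT1 and the other nuclear-retained RNAs had a median response of 1.12 in parental and 0.74 in resistant cells over 5 genes tested, with 0 interaction calls by edgeR at an adjusted or an unadjusted p under 0.05 and 0 with limma-voom or DESeq2. Over all genes 7.52% had a call, so nothing is read from 0 of 5. The part of nuclear RNA content in the kept responses was not tested.

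Other gene lists had few or no interaction calls at 1.5-fold in edgeR's quasi-likelihood test. DNA replication (45 genes tested), mitosis and spindle (31), nuclear-encoded oxidative phosphorylation (76), cytosolic ribosomal proteins (79), metallothioneins and zinc response (9) and targets of the glucose sensor MondoA (6) had 0 calls, against 7.52% of all genes. An unadjusted p under 0.05, limma-voom and DESeq2 also gave 0 for each of them, whereas library size alone gave 1 call in the MondoA list, ARRDC3 (0.68, against 0.57 with TMM). The ribosomal protein genes were nevertheless uniform: at an adjusted p under 0.05, 74 of 79 rose and 0 fell in parental cells (28.3% and 30.4% of all genes), 0 rose and 15 fell in resistant cells (9.01% and 12.5%), 76 had a negative interaction (21.4%), and the median interaction was -0.25, or -0.15 with library size alone, where the median of all genes was 0.10. Mitotic genes went the other way, with 20 of 31 positive and 2 negative at an adjusted p under 0.05 (22.7% and 21.4% of all genes) and a median of 0.18. In lists as short as those of metallothioneins and MondoA targets 0 calls is near the share of all genes, and nothing is read from it. The interaction was negative for 6 and positive for 1 of the 9 genes of the metallothionein list at an adjusted p under 0.05. Single calls in the NRF2, sterol and NF-kappaB lists made up shares below the 7.52% of all genes. Among 24 tested NRF2 targets HMOX1, which degrades haem, was the call (4.17%) and was reversed (0.38 and -0.36). INSIG1 was the single call (0.30 and -0.40) among 32 tested sterol and fatty acid genes (3.12%). Of the 24 tested genes of the NF-kappaB list TNF alone had a call (4.17%), at -0.67, under 1.5-fold with library size alone (-0.56). Of 160 tested numbered long intergenic noncoding RNAs 12 had a positive and 7 a negative call (11.9% against 7.52% of all genes), or 12 in all with DESeq2. LINC00909, at 0.905, 1.03 and 0.981 and 0.554, 0.419 and 0.391 CPM in parental and 3.33, 3.695 and 3.53 and 4.57, 5.27 and 4.61 CPM in resistant cells, had the smallest p of them.

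**Figure D5:**
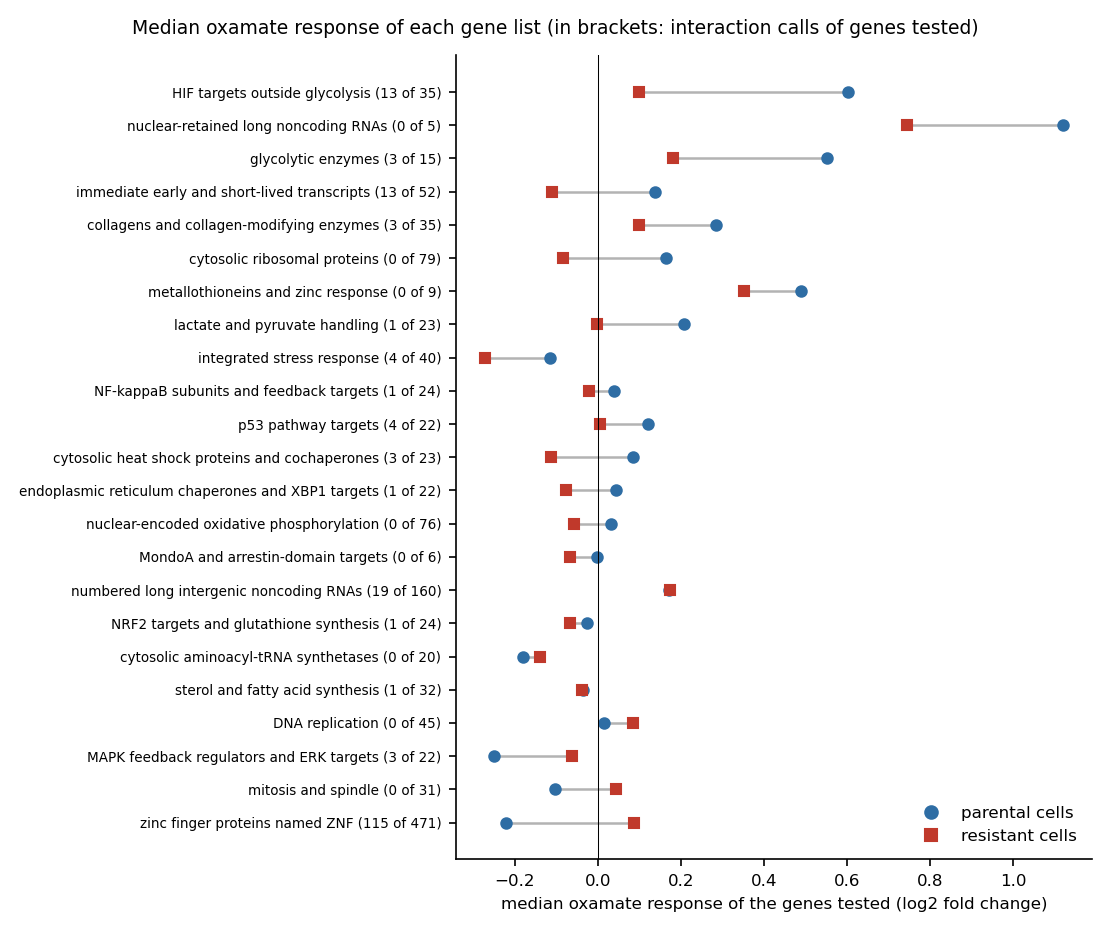
Median log2 response to oxamate of the tested genes of each list in parental (circles) and resistant cells (squares), ordered by the median interaction, with the number of interaction calls of the genes tested in brackets. HIF targets, nuclear-retained RNAs (0 interaction calls) and glycolytic enzymes show a wide gap with the parental median higher, and ZNF genes one with the resistant median higher.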

How the data were processed

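RNA-seq libraries of MIAPaCa2 cells were placed in 4 groups of 3 replicates from the labels. The methods describe oligo(dT) enrichment and NEBNext libraries sequenced on 2 lanes. The authors deposited RSEM expected counts per gene symbol, not normalized (Bowtie2 2.1.0, RSEM 1.2.15 and hg38, per the submitters' processing notes), of which 11.6% are not whole numbers. The methods also describe counting with STAR and featureCounts. RSEM divides reads between similar transcripts, and whether the counting used strand is not given in the sources used here.

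Rounded expected counts entered edgeR 4.0.16 (R 4.3.3): filterByExpr left 14582 genes, followed by TMM factors and glmQLFit with glmQLFTest on 4 group means in all 12 libraries. Library totals of 46698729 to 114222169 set the precision. Responses and the interaction were contrasts of this fit, with Benjamini-Hochberg adjustment over all genes. The paper's methods give a threshold of p under 0.05 without naming an adjustment, and an unadjusted p was an alternative. The interaction test was tested on simulated data.

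The members and lists were chosen with earlier results of these data known. Genes were named by the smallest interaction p within each class (5 reversed and 4 lost per direction, 2 damped, 3 gained and 3 kept), at a mean of at least 1 CPM and without overlap of replicates where a response passed, together with the 3 called members of each list with the smallest p, LDHA, LDHB and the genes at the 1.5-fold limit. Other list members were named after their values were seen. Replicate numbers were not treated as pairs. Exon number and GC content came from GENCODE release 29 by symbol (93.6% matched), and windows before transcription starts from RefSeq.

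The alternatives were RLE, upper-quartile and no scaling factors, no filter, a minimum mean count of 25, unrounded counts, a replicate block, limma-voom (limma 3.58.1), DESeq2 1.42.0, an unadjusted p, 2-fold, a test against 1.5-fold, each line's own 6 libraries, each library left out, and 2 libraries left out together. A mean of at least 8 CPM was added after the data were seen.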

Additional observations from a re-analysis of the deposited data

Results flagged for a closer look

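The responses of the cell lines to oxamate differed by the interaction test for 728 genes with a higher and 369 genes with a lower response in resistant cells, and among the genes named for the smallest p in each direction of reversal.

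The interactions of the genes that rose in parental and fell in resistant cells were -1.18 for SLC2A3, -2.09 for ANKRD37, -2.27 for ADM, -1.25 for HILPDA and -0.91 for HK2 on the log2 scale. Those of the genes that fell in parental and rose in resistant cells were 2.42 for PPP1R10, 0.99 for ZNF629, 0.91 for QRICH1, 1.48 for CENPBD1 and 1.28 for FADD. With each library left out in turn, the interaction of ADM stayed between -2.33 and -2.24 and that of PPP1R10 between 2.36 and 2.46. With groups of 3 replicates, single outlying values were not tested for.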

How the results depend on the processing

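Over 61 named genes and 1525 values under the alternatives, 1408 kept the direction and side of the threshold, 103 fell under the threshold, 14 passed it, and 0 changed sign. A 2-fold limit gave 236 higher and 75 lower responses in resistant cells, with 86 reversed, 115 lost, 4 damped, 12 gained and 13 kept, and 14.4% of raised parental genes called. The test against 1.5-fold gave 204 and 54, with 116 reversed, 135 lost, 6 damped and 1 gained, and called 3.74% of the raised and 34.3% of the lowered parental genes. An unadjusted p under 0.05 gave 79 damped, 70 gained and 114 kept responses. Library size alone gave 1105 higher and 205 lower responses, 30 damped, and shares of 21.8% and 84% of raised and lowered parental genes. A mean of at least 8 CPM, chosen after seeing the data, left 276 and 148 interaction calls, 150 reversed, 193 lost, 28 damped, 0 gained and 4 kept, with fewer genes tested, and 43.8% of the raised genes called. A mean count of at least 25 gave shares of 35.2% and 84.9%, and DESeq2 gave 8 gained and 29 kept responses. With libraries left out, higher responses ranged from 683 to 944, lower from 328 to 396, reversed from 159 to 328, lost from 533 to 624, damped from 24 to 53, gained from 8 to 147 and kept from 23 to 122, and the shares from 25.8% to 36.9% and from 78.5% to 84.1%. The largest values of the higher, reversed and gained counts came from leaving out both libraries rich in nuclear-retained RNA. The causes were not tested. The replicate block gave 745 higher and 370 lower responses and 81 kept ones, and same-numbered libraries correlated above 0.1 in 10 of 18 pairs (-0.231 to 0.436), among them all 3 between vehicle-treated and oxamate-treated resistant cells (0.108 to 0.436) and all 3 between oxamate-treated parental and vehicle-treated resistant cells (0.121 to 0.432), but 1 of 3 between the parental groups, so the numbers were not taken as pairs over the 4 groups. With the block the resistant response was called up for 227 and down for 25 genes, and of the named genes the block changed the call of AGAP4 alone. Responses of genes near the floor of 0.0283 to 0.0581 CPM were not measurable at this depth.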
